A study of Chlorocebus sabaeus with 12 samples.

Results

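Gene expression was compared between COS-1 cells carrying the S154D and the S154A mutant of human FXR, both without bile acid. The comparison rests on 6 of the 12 arrays of the series, chosen by their titles: the 3 of S154D_DMSO and the 3 of S154A_DMSO. COS-1 is a kidney line of the African green monkey, transformed with SV40. Cells of both groups expressed a mutant transiently for 24 h and were then kept for 24 h in medium with 0.1% DMSO, the solvent of the bile acid. The other 6 arrays held the same mutants with chenodeoxycholic acid (CDCA), whose dose the labels give as 50 mM (the unit was not checked and may be a slip for micromolar), and are used here only beside the DMSO values. The question was whether the charge at the exchanged residue alters expression when no ligand is added. Wild-type FXR and untransfected cells were not analysed here, so the activity of either mutant against none was not measured, and the labels name neither vector nor promoter. Nothing in them says that replicates came from separate cultures, so errors and p-values describe the spread between arrays, which may be technical.

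FXR, encoded by NR1H4, is the nuclear receptor that senses bile acids. It binds DNA mostly as a heterodimer with a retinoid X receptor (RXR), and bile acid in its ligand pocket exchanges corepressors for coactivators. In the ileum and kidney it is known for genes that bind, export and signal bile acids, and in the liver for lowering bile acid synthesis. The serine exchanged in both mutants lies in or beside the DNA-binding domain and can be phosphorylated by protein kinase C. Alanine cannot carry a phosphate, whereas aspartate carries a negative charge and is used to mimic one.

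The arrays carried probes of 60 bases designed on human transcripts, and levels are log2 values relative to the 75th percentile of the array, so 0 is the level of that percentile. The probes of the receptor and of 3 bile acid targets are shown because the question turns on them. G and C are in capitals, since probe GC content went with the differences between the groups, as given further on. Coordinates are those of the array's design, in human build hg17, and each probe lies in exons on the plus strand.

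NR1H4: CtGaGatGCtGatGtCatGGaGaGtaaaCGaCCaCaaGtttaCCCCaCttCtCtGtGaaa
OSTalpha: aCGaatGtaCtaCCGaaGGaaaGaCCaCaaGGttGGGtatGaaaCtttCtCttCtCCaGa
OSTbeta: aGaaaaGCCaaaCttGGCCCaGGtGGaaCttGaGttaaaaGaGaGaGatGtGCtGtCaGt
FABP6: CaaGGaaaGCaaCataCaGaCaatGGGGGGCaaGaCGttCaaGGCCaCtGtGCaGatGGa

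The NR1H4 probe, at chr12:99459659-99459718, lies in the part that encodes the end of the ligand-binding domain, away from the exchanged codon, so the same bases read both mutants. The OSTalpha probe is at chr3:197448296-197448355 and the OSTbeta probe at chr15:63132462-63132521. The FABP6 probe, at chr5:159591816-159594421, joins bases on both sides of an intron. GC content was 45% in the probes of NR1H4 and OSTbeta, 43.3% in that of OSTalpha and 51.7% in that of FABP6.

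The transcript of the transfected receptor was read at overlapping levels in both groups. NR1H4 stood at 7.65, 7.92 and 7.63 on S154A_DMSO 1, 2 and 3, and at 7.90, 7.94 and 7.46 on S154D_DMSO 1, 2 and 3. The log2 difference, S154D minus S154A, was 0.03 ± 0.15 (standard error of the fit, n = 3 arrays per group; 95% interval -0.30 to 0.37). It was 0.25 between the arrays of slide 1 and -0.17 between those of slide 3. RXRA, the partner of FXR, overlapped as well, at 2.84, 2.81 and 2.99 in S154A_DMSO and 3.03, 2.99 and 2.88 in S154D_DMSO (difference 0.09 ± 0.17, interval -0.30 to 0.47). RXRB had a difference of 0.18 ± 0.21, and RXRG was not kept for testing.

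**Figure D1:**
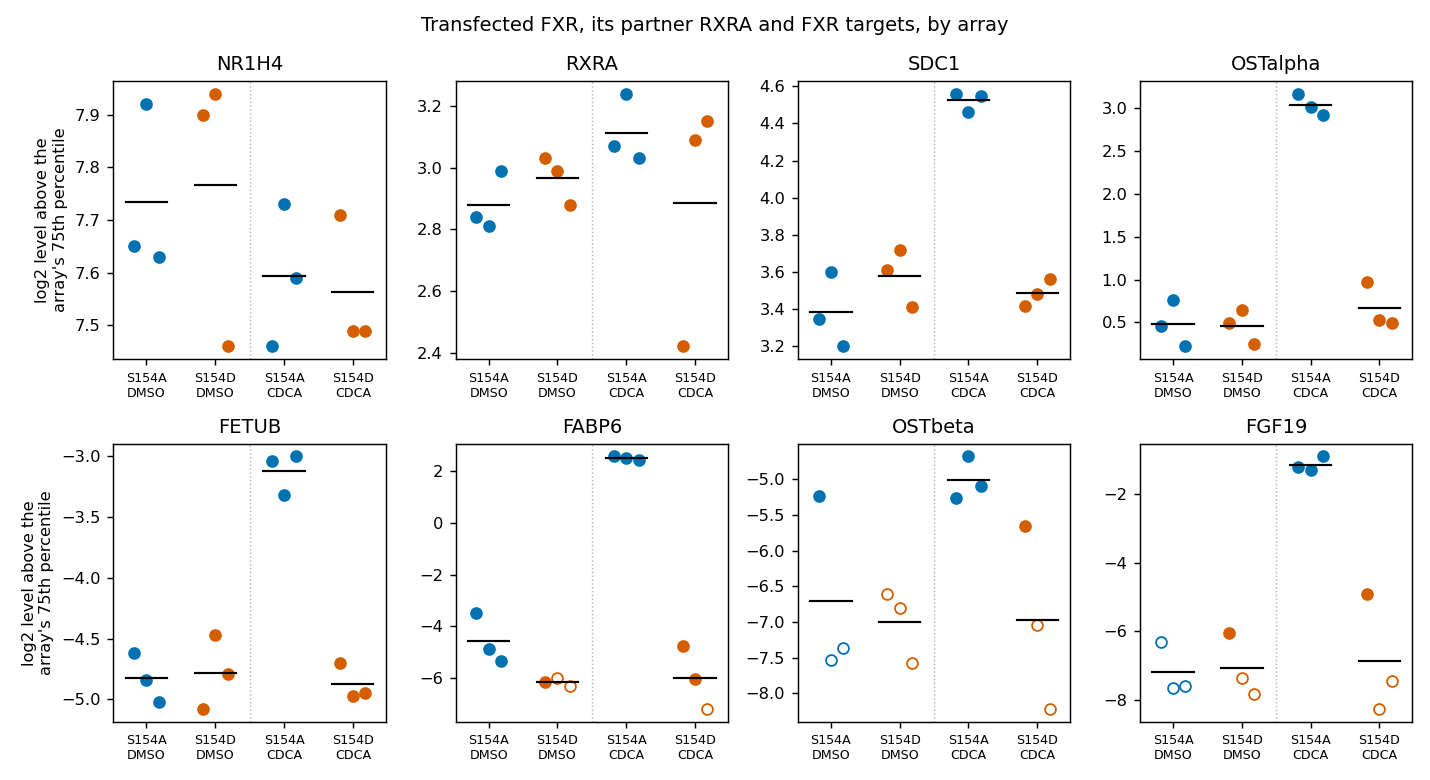
Log2 level above the array's 75th percentile (y axis, a separate scale in each panel) of NR1H4, RXRA and 6 FXR targets on each array of the 4 groups (x axis). Filled points are arrays on which the probe was well above background, open points are not, and bars are means; in DMSO the points of both mutants overlap for the genes shown except FABP6.

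No FXR target was called between the mutants in DMSO. Of 51 listed targets 50 had a probe and 33 were kept, because 1 or more of the 4 groups had to have a probe well above background on each of its 3 arrays. Limma called 0 of the 33 at an adjusted p under 0.05, against 0% of the 20357 genes tested. Each gene is given by its brightest kept probe, and on these an unadjusted p under 0.05 was reached by 1 target, lower in S154D (3.15% of all genes were lower and 1.17% higher by that measure). Of the further probes of targets, 1 of SDC1 (0.44 ± 0.13, limma unadjusted p = 0.00811) and 1 of TRIB3, a stress-induced pseudokinase (0.42 ± 0.17, limma unadjusted p = 0.0296), also had one, with S154D higher. In 14 targets the difference was positive and in 19 negative, with a median of -0.015, beside 0 over all genes. That median was -0.053 within slide 1, 0.03 within slide 3 and 0.033 between the replicates 2, which lay on different slides.

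The interval excluded a change of 2-fold in either direction for 28 of the 33 targets. That included each of the 26 that were well above background on all 6 arrays, whose differences ran from -0.17 to 0.28 and whose interval bounds ran from -0.61 to 0.70. The other 7 were FABP6, FGF19, OSTbeta, HRG, FGG, ICAM1 and APOC2, near background in at least 1 group.

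**Figure D2:**
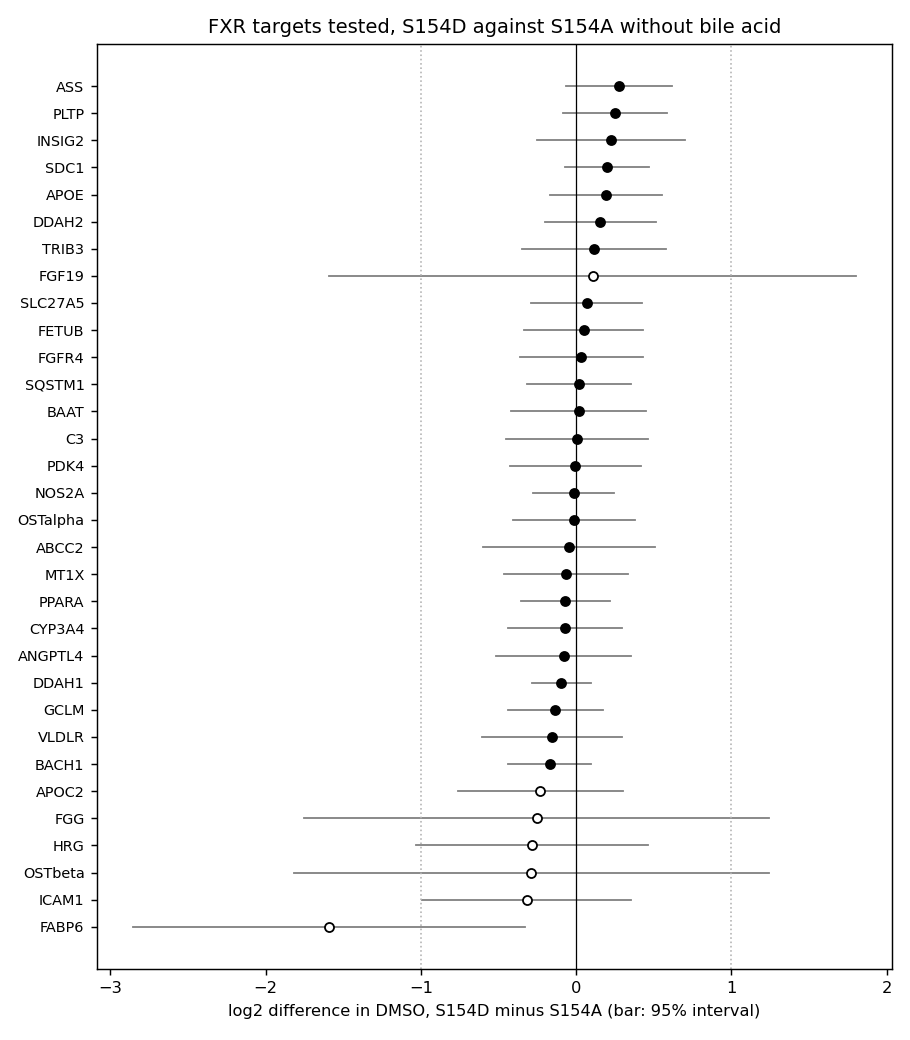
Log2 difference in DMSO, S154D minus S154A, of the FXR targets tested and reported here (x axis; bars are 95% intervals from limma, dotted lines mark a 2-fold change). Filled points are targets well above background on all 6 arrays, whose intervals all lie inside the dotted lines, and the interval of FABP6 alone leaves out 0.

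OSTalpha and OSTbeta are the subunits of the exporter that carries bile acids across the basolateral membrane. OSTalpha was readily measured, at 0.46, 0.76 and 0.22 in S154A_DMSO and 0.50, 0.65 and 0.25 in S154D_DMSO. The groups overlapped, with a difference of -0.02 ± 0.18 (interval -0.41 to 0.38), and a further OSTalpha probe gave -0.26 ± 0.26. With CDCA the OSTalpha means were 3.04 in S154A and 0.66 in S154D, so the DMSO levels of both mutants lay beside that of S154D with CDCA. OSTbeta was near background: it stood at -5.23, -7.53 and -7.37 in S154A_DMSO, well above background on the first of these, and at -6.61, -6.81 and -7.58 in S154D_DMSO, on none. Its difference of -0.29 ± 0.69 (interval -1.82 to 1.25) leaves 2-fold changes in either direction unresolved.

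FABP6, the ileal cytosolic bile acid-binding protein, was the FXR target with the largest difference. It stood at -3.48, -4.89 and -5.32 in S154A_DMSO and at -6.16, -6.01 and -6.29 in S154D_DMSO. Every S154A array was higher than every S154D array, as for 3 of 33 targets in that direction (6.2% of all genes) and 1 of 33 in the other (4.76%). FABP6 was well above background on 3 of 3 S154A_DMSO and 1 of 3 S154D_DMSO arrays. The difference was -1.59 ± 0.57 (interval -2.85 to -0.33; limma unadjusted p = 0.0184, adjusted p = 0.997) and did not pass.

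The FABP6 difference was -2.68 within slide 1, -0.97 within slide 3 and -1.12 between replicates 2. Dim probes as a class were brighter on S154A_DMSO 1. Over the 1458 genes with a mean level under -5, that array exceeded the mean of the other 2 S154A_DMSO arrays by a median of 0.67, and the median difference within slide 1 was -0.63 against 0.15 within slide 3. The part of this shift in the FABP6 value was not tested. For scale, FABP6 averaged 2.52 in S154A with CDCA and -5.99 in S154D with CDCA.

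FGF19, the ileal hormone that restrains hepatic bile acid synthesis, was at background without CDCA. Its values were -6.32, -7.64 and -7.59 in S154A_DMSO, well above background on none, and -6.06, -7.35 and -7.82 in S154D_DMSO, on 1. The difference was 0.11 ± 0.76 (interval -1.59 to 1.80), so this probe gave a wide range and no order. FGFR4, the receptor for FGF19, was above background throughout, with a difference of 0.03 ± 0.18.

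Targets that act in bile acid and drug handling lay near 0 on their brightest kept probes. BAAT, which joins bile acids to amino acids, differed by 0.02 ± 0.20, and SLC27A5, the ligase that activates them, by 0.07 ± 0.16. ABCC2, a canalicular export pump, differed by -0.05 ± 0.25 (-0.25 ± 0.24 on a further probe). CYP3A4, a drug-metabolising cytochrome, differed by -0.07 ± 0.16. On the brightest kept probes both groups overlapped in each.

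Among the plasma protein and surface targets, FETUB, which encodes fetuin-B, stood at -4.62, -4.84 and -5.02 in S154A_DMSO and -5.08, -4.47 and -4.79 in S154D_DMSO (difference 0.05 ± 0.17). SDC1, the heparan sulfate proteoglycan syndecan-1, stood at 3.35, 3.60 and 3.20 against 3.61, 3.72 and 3.41 (0.20 ± 0.12, interval -0.07 to 0.47). The groups overlapped on both probes, while the further SDC1 probe, above, gave a difference of 0.44 ± 0.13. HRG, the histidine-rich glycoprotein, was well above background on 1 of 3 arrays in either group (-0.28 ± 0.34). FGG, a fibrinogen chain (-0.26 ± 0.67), and C3, the central complement protein (0.01 ± 0.21), overlapped too.

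Among targets in lipid handling, PLTP, the phospholipid transfer protein, was at -1.79, -1.45 and -1.68 in S154A_DMSO and -1.33, -1.49 and -1.35 in S154D_DMSO (0.25 ± 0.15). INSIG2, which holds the sterol sensor in the endoplasmic reticulum, differed by 0.22 ± 0.21 (-0.17 ± 0.19 on a further probe) and APOE by 0.19 ± 0.16. On the other side of 0 lay the lipoprotein receptor VLDLR (-0.16 ± 0.20), ANGPTL4, an inhibitor of lipoprotein lipase (-0.08 ± 0.20), and APOC2, its activator (-0.23 ± 0.24). PPARA, a receptor for fatty acids, and PDK4, an inhibitor of pyruvate dehydrogenase, had differences of -0.07 and -0.005. Further PPARA probes gave -0.314 ± 0.216 and -0.345 ± 0.329. None of these passed, and each was smaller than 2 of its standard errors.

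The other targets without overlap were ASS, GCLM and DDAH1. With FABP6, 3 of 33 targets were lower and 1 of 33 higher without overlap, beside 6.2% and 4.76% of all genes. DDAH2 (0.16 ± 0.16), NOS2A (-0.01 ± 0.12) and SQSTM1 (0.02 ± 0.15) overlapped between the groups. ASS, argininosuccinate synthase, stood at 0.65, 0.98 and 0.84 in S154A_DMSO and 1.04, 1.02 and 1.25 in S154D_DMSO, the S154D arrays being higher (0.28 ± 0.15, limma unadjusted p = 0.0987). GCLM, a subunit of the first enzyme of glutathione synthesis, stood at 0.88, 0.84 and 0.96 against 0.76, 0.81 and 0.71 (-0.13 ± 0.14). DDAH1, which degrades methylated arginine, stood at 1.32, 1.24 and 1.33 against 1.17, 1.23 and 1.21 (-0.09 ± 0.09). These were separations of small size: the interval ran from -0.06 to 0.62 for ASS, from -0.44 to 0.17 for GCLM and from -0.28 to 0.09 for DDAH1.

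Of the targets not tested, CYP7A1, the first enzyme of bile acid synthesis, was well above background on no array of either DMSO group, and so was ABCB11, the bile salt export pump. NR0B2, the corepressor SHP, was so on 1 of 3 S154A_DMSO arrays and 0 of 3 S154D_DMSO arrays. SLC10A1 and SLC10A2, the hepatic and ileal bile acid importers, gave the same counts. A level below background on these human probes bounds the signal of the monkey transcript and does not show that it is absent.

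For 6 of the 33 targets the difference between the mutants itself depended on CDCA, by the interaction term (limma adjusted p under 0.05; 0.138% of all genes). These were OSTalpha, FABP6, FETUB, SDC1, HRG and ASS. In DMSO they differed by -1.59 (FABP6) to 0.28 (ASS), and with CDCA by -8.51 (FABP6) to -1.04 (SDC1). HRG had been kept only through S154A with CDCA, where it is high, and was well above background on none of the S154D arrays with CDCA. Its value is therefore read against background and counts as no support. FABP6 was kept only through both S154A groups. It was well above background on 1 of 3 S154D_DMSO arrays and 2 of 3 S154D arrays with CDCA, so its value is a description too. The targets were listed with earlier results of these data known, so their share beside that of all genes is a description and no test. With probes required to be well above background on all 12 arrays, which removed HRG and FABP6, the count was 4. It was 1 without S154A_DMSO 1 or S154A_DMSO 2, 0 without S154A_DMSO 3 or S154D_DMSO 1, 2 without S154D_DMSO 2 and 1 without S154D_DMSO 3. With slide as a block it was 0.

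Across the transcriptome limma called 0 of 20357 genes, and the smallest adjusted p was 0.997. An unadjusted p under 0.05 was reached by 880 genes (4.32%), 239 higher and 641 lower in S154D. The median absolute difference was 0.13 and the median standard error 0.17, and 90% of genes had a difference between -0.41 and 0.33. For 17013 genes, 83.6%, the interval excluded a 2-fold change. Differences of at least 2-fold were measured for 104 genes higher and 94 lower in S154D. Of these, 16 of the higher and 13 of the lower were well above background on all 6 arrays.

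**Figure D3:**
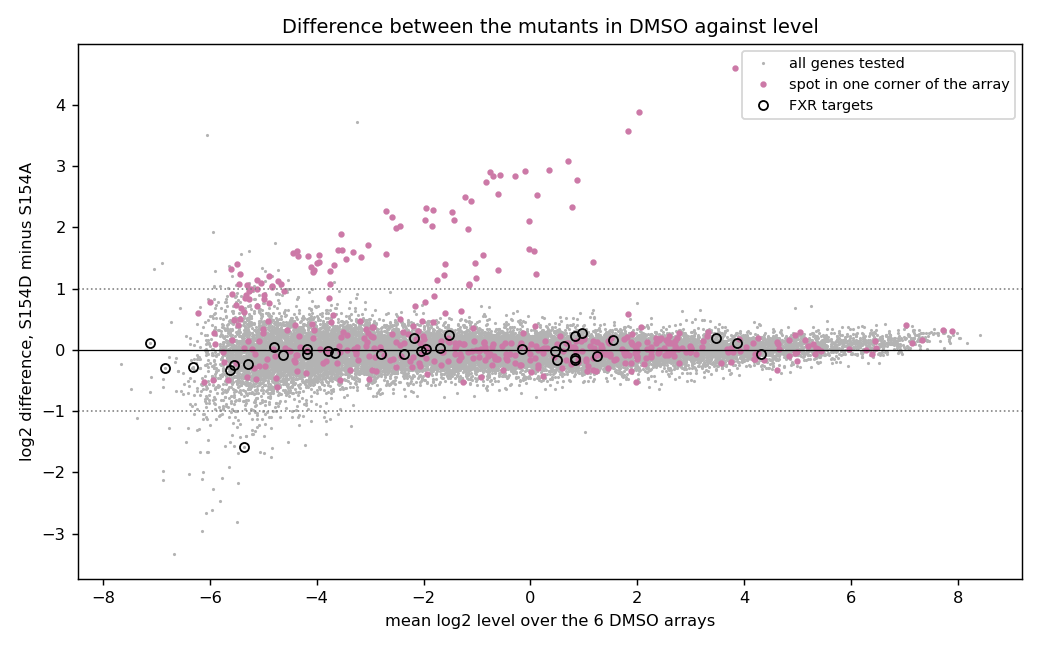
Log2 difference in DMSO, S154D minus S154A (y axis), against the mean log2 level over the 6 DMSO arrays (x axis) for all 20357 genes; circles are the 33 FXR targets, coloured points are genes whose spot lies in 1 corner of the array, and dotted lines mark 2-fold. Of the 67 genes at least 2-fold higher with an S154D mean above -4, 63 are corner spots, and the FXR targets lie near 0 except FABP6.

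One corner of S154A_DMSO 3 was dark. On that array 101 spots lay more than 2 log2 units below their own median over the 12 arrays, among spots with a median above -4. All 101 were in rows 1 to 45 and columns 1 to 25 of an array of 532 rows and 85 columns. Of the 104 genes at least 2-fold higher in S154D, 76 had their spot there, and of the 94 lower none did. Without those spots, an alternative chosen after seeing the data, 28 genes were at least 2-fold higher and 94 lower, and 0 were called. Most of the 94 were dim: 17 had an S154A_DMSO mean above -4. Of the 104 higher genes 67 had an S154D_DMSO mean above -4, 63 of them in the corner.

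Several genes of interest for FXR or stress lie in the corner. NCOA3, a coactivator of nuclear receptors, stood at -0.33, -1.57 and -4.97 in S154A_DMSO against -0.84, -1.28 and -0.52 in S154D_DMSO, so its difference of 1.41 rests on S154A_DMSO 3 and was 0.07 without that spot. NUPR1, a stress-induced chromatin protein, went from 2.17 to 0.22. PRKAA2, a catalytic subunit of AMP-activated kinase, went from 1.60 to -0.09 and CLDN7, a tight junction protein, from 1.42 to 0.01. FOS, the immediate early factor, went from 0.71 to -0.05. Among the 5 largest differences with S154D higher and no overlap, UBE2E1, SERP1 and LTC4S were also corner spots, at 0.36, 0.27 and 0.27 without them. A further SERP1 probe outside the corner gave the opposite sign, -0.88 ± 0.16.

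**Figure D4:**
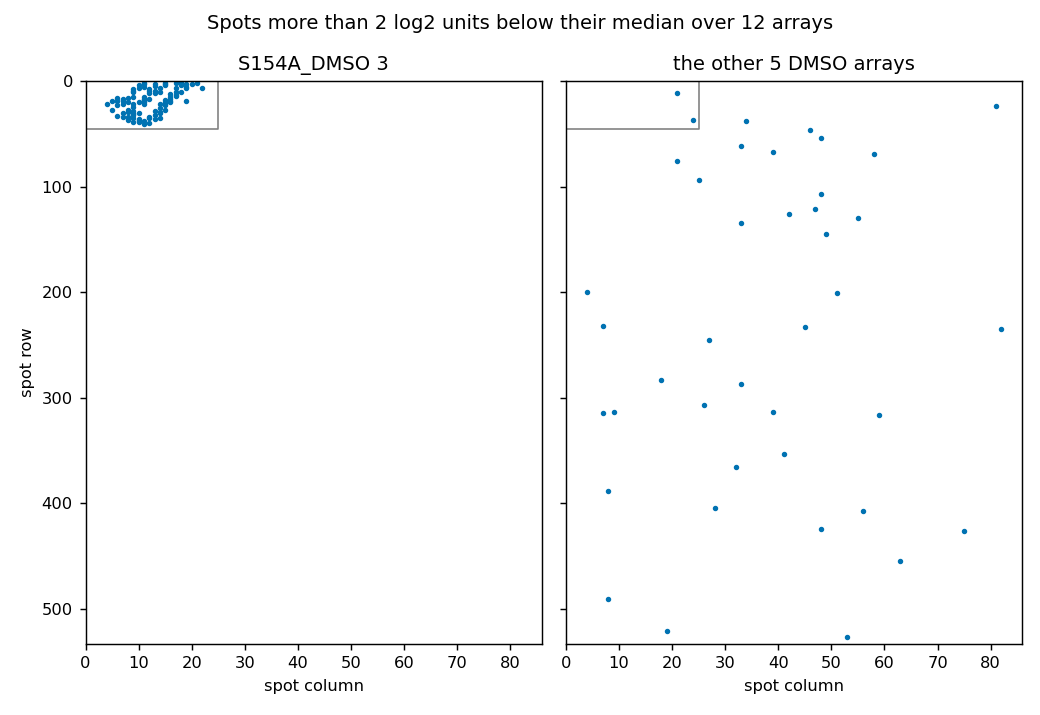
Position (x axis, spot column; y axis, spot row) of spots more than 2 log2 units below their median over the 12 arrays, for S154A_DMSO 3 on the left and the other 5 DMSO arrays together on the right. The 101 spots of S154A_DMSO 3 all fall inside the outlined corner, while the 41 spots of the other arrays, 39 of them on S154A_DMSO 2, are scattered.

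Among genes with a symbol and no overlap between the groups, those with the smallest p and S154D higher had small, tight differences, none of which passed (limma adjusted p = 0.997 for each gene named in this paragraph and the next). PPP1R3D, a subunit that targets a phosphatase to glycogen, stood at -3.25, -3.25 and -3.25 in S154A_DMSO and -2.78, -2.53 and -2.72 in S154D_DMSO (0.57 ± 0.14). UNG, the uracil-DNA glycosylase, stood at -1.47, -1.35 and -1.35 against -0.97, -1.03 and -0.73 (0.48 ± 0.13). STAT2, a transducer of interferon signals, differed by 0.38 ± 0.11. In each the S154D arrays were higher by less than 2-fold. Bright genes among them were IGFBP2, a binding protein of insulin-like growth factors (0.40 ± 0.12), and ANXA2, the membrane-binding annexin A2, at 7.59, 7.72 and 7.54 against 7.90, 7.97 and 7.84 (0.29 ± 0.09). The others were C15orf21 (0.38), GRPEL2, a cochaperone of mitochondrial import (0.35), SYNGR3 (0.42), TMEM9B (0.32), FBLN2 (0.39), DYNLRB1 (0.30) and SHQ1 (0.42). Further probes went the other way for SHQ1 (-0.23 ± 0.13), TMEM9B (-0.09 ± 0.10) and, on 1 of 2, ANXA2 (-0.37 ± 0.29, the other 0.12 ± 0.10), so the direction of these 3 genes depends on the probe.

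With S154D lower, FBXO5, which holds back the anaphase-promoting complex, stood at -1.88, -1.89 and -1.93 in S154A_DMSO and -2.74, -2.36 and -2.60 in S154D_DMSO (-0.67 ± 0.16). NCBP1, the large subunit of the nuclear cap-binding complex, stood at -1.31, -1.18 and -1.33 against -1.75, -1.58 and -1.71 (-0.40 ± 0.10). HMG4L, named like a copy of an HMG-box gene, differed by -0.54 ± 0.12 and RPS12, a ribosomal protein, by -0.54 ± 0.14. The probes of FBXO5, NCBP1 and RPS12 held 35% GC. The S154D arrays were also the lower ones for MTO1, which modifies mitochondrial tRNA (-0.64 ± 0.15), TMOD2, a capping protein of actin filaments (-0.90 ± 0.22), ASCC3L1 (-1.26 ± 0.32), ZNF702 (-0.51 ± 0.13) and S100A14 (-0.45 ± 0.12).

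A few probes were measured in S154A_DMSO and at background in S154D_DMSO. Of all genes, 11 were well above background on 3 of 3 S154A_DMSO and 0 of 3 S154D_DMSO arrays, and 5 the other way round. For such genes the lower side is bounded by the dimmest probe well above background on each array, which gives a least fold. ZNF491, a zinc finger gene, stood at -6.04, -3.97 and -5.01 against -8.78, -8.08 and -8.17 and was at least 2.08-fold lower in S154D (fitted difference -3.34 ± 0.57). It had the smallest p of the table (limma unadjusted p = 0.000148, adjusted p = 0.997, from 0.0264 to 1 over the alternatives) and was called in the deposited values without centring. ZNF491, C9orf33 and GJB6 were kept for testing only through S154A_DMSO, where they are high, so their p and differences come from genes selected in that direction and are given as a description. C9orf33, at -4.61, -4.59 and -4.82 against -7.81, -7.16 and -7.93, was at least 2.62-fold lower. GJB6, the gap junction protein connexin 30, was at least 2.65-fold lower, with -3.37 on S154A_DMSO 2 as its highest value. ALDH3A1, an aldehyde dehydrogenase, was measured on 2 of 3 S154A_DMSO arrays (fitted difference -2.02) and TPH1, of serotonin synthesis, on 1 of 3. For both, the S154A_DMSO side includes values near background, so no least fold is given. In S154A with CDCA, ZNF491 and C9orf33 averaged -8.04 and -7.85, beside the S154D_DMSO values.

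Among genes with a symbol and no overlap, the largest differences outside the corner with S154D higher included those of KCNJ16 and OR10A5. KCNJ16, a potassium channel subunit of kidney tubules, stood at -5.38, -5.20 and -5.57 in S154A_DMSO and at -2.70, -5.01 and -4.51 in S154D_DMSO (1.31 ± 0.47). Most of it lay on S154D_DMSO 1. OR10A5, an olfactory receptor, stood at -4.03, -4.59 and -4.07 against -3.66, -3.22 and -2.48 (1.11 ± 0.44). GPR55, a lipid-sensing receptor, was among the largest in the other direction (-1.91 ± 0.57).

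Members of 23 functional gene lists and 6 marker lists were then described, and limma called 0 members of any of them. In the deposited values without centring the median of all genes was -0.24 and most members lay below 0, so directions are given relative to the centred scale. Of the FXR partners and coregulators 27 of 42 lay above 0, with a median of 0.07. Without overlap, 4 of the 42 were higher and 1 lower in S154D, beside 4.76% and 6.2% of all genes. The coactivator NCOA2, dim on the S154A_DMSO arrays, had 0.88 ± 0.51 and the acetyltransferase PCAF -0.41 ± 0.26, with 0.24 ± 0.42 on a further PCAF probe. Of kinases and phosphatases linked to FXR phosphorylation, protein kinase C isoforms among them, 15 of 25 lay above 0 (median 0.09). SRC, a tyrosine kinase, stood at -2.40, -2.42 and -2.55 in S154A_DMSO against -2.14, -2.19 and -2.09 in S154D_DMSO (0.32 ± 0.13), and PPP1CA, a catalytic subunit of protein phosphatase 1, differed by 0.34 ± 0.19.

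Genes of bile acid and sterol metabolism other than the targets also gave no call. Of 15 tested members for bile acid synthesis and transport 10 lay below 0 (median -0.03). CYP7B1, of the alternative pathway of bile acid synthesis, stood at -3.27, -3.19 and -3.31 in S154A_DMSO against -3.55, -3.37 and -3.68 (-0.28 ± 0.12), and ABCC4, a basolateral bile acid exporter, differed by -0.25 ± 0.13. The groups did not overlap in either. Of 26 cholesterol genes 17 lay below 0 (median -0.06), from IDI1 (-0.49 ± 0.20) to MVK (0.24 ± 0.17, and -0.06 ± 0.19 on a further probe), enzymes of the mevalonate pathway. Fatty acid synthesis genes (median 0.04, 22 tested) ran from -0.399 to 0.309 and oxidation genes (median -0.07, 21 tested) from -1.045 to 0.188. They included SREBF1, the lipogenic master factor (0.26 ± 0.11), and ACADM, an acyl-CoA dehydrogenase (-0.30 ± 0.13).

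Of 76 ribosomal protein genes 66 were positive, with a median of 0.15 that turned to -0.02 with quantile normalisation, where 33 were positive. In the main values 10 were higher in S154D without overlap and 1 lower, beside 4.76% and 6.2% of all genes. The median was 0.14 within slide 1 and 0.13 within slide 3. It was 0.07 without S154D_DMSO 2, 0.08 without S154A_DMSO 3 and 0.23 without S154D_DMSO 3. In the deposited values without centring it was -0.10, where all genes had a median of -0.24. Relative to all genes, the list median ran from -0.017 to 0.225 over 19 alternatives. RPL41 stood at 6.22, 6.36 and 6.29 in S154A_DMSO against 6.55, 6.63 and 6.55 in S154D_DMSO (0.29 ± 0.11), and RPS12, named above, was the 1 lower.

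Stress genes lay above 0 mainly on slide 1. Of 39 genes that answer unfolded proteins or act in the integrated stress response, 30 were positive (median 0.14), and the median was 0.30 within slide 1, 0.02 within slide 3 and 0.05 without S154D_DMSO 1. PHGDH, of serine synthesis, stood at 2.68, 2.77 and 2.33 in S154A_DMSO against 3.27, 2.82 and 2.97 (0.43 ± 0.17), and EIF2AK3, the kinase PERK, differed by -0.37 ± 0.17. In the NRF2 response 18 of 25 lay above 0 (median 0.05), led by thioredoxin reductase TXNRD1 (0.39 ± 0.16). Heat shock proteins had a median of -0.04 over 21 genes.

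Of 31 immediate early and ERK pathway genes 21 were negative, with a median of -0.09 that became 0.02, with 15 negative, once the GC trend was removed. The median of all genes was 0.087 in that setting, so the list still lay below it. Relative to all genes, the list median ran from -0.131 to -0.021 over 19 alternatives. In the main values 8 were lower without overlap and 5 had an unadjusted p under 0.05 with S154D lower, against 6.2% and 3.15% of all genes. FOSB, a partner of JUN, stood at -5.13, -5.50 and -4.07 in S154A_DMSO and -5.94, -6.60 and -6.33 in S154D_DMSO (-1.39 ± 0.43). It was well above background on 3 and 1 of these arrays. KLF10 stood at -0.24, -0.52 and -0.32 against -1.13, -0.60 and -0.88 (-0.51 ± 0.20), and ETV5 differed by -0.38 ± 0.14 (0.003 ± 0.53 on a further probe). The probes of KLF10 and ETV5 held 35% GC.

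**Figure D5:**
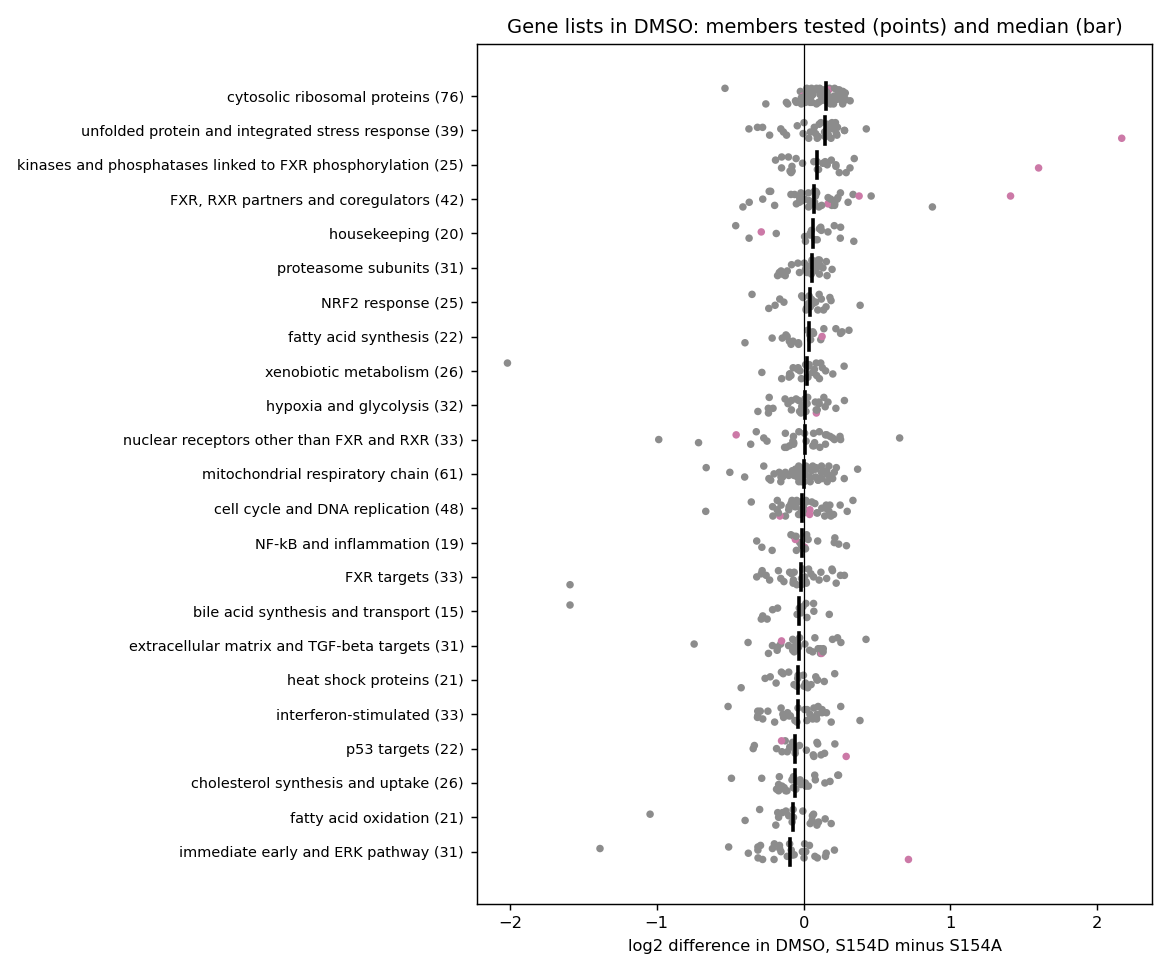
Log2 difference in DMSO, S154D minus S154A (x axis), of the members tested in 23 gene lists (rows, number tested in parentheses); points are genes, coloured where the spot lies in the dark corner, and bars are list medians. Medians run from -0.09 for immediate early genes to 0.15 for ribosomal proteins. The first was 0.02 with the GC trend removed, where all genes had a median of 0.087, and the second -0.02 with quantile normalisation.

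Probe GC content went with the differences. Across genes, which are not independent replicates, Spearman's rho between GC and the difference was 0.31, and it was 0.20 within slide 1, 0.37 within slide 3 and 0.05 between replicates 2. The median difference was -0.10 for 5554 genes whose probe held under 40% GC and 0.07 for 5601 genes at 50% or more. Removing the trend left 0 genes called by limma, with 404 higher and 173 lower at an unadjusted p under 0.05. The median of all genes was then 0.087. The part of GC in any single gene was not tested. The differences within slide 1 and within slide 3 shared little across 20277 genes (Pearson's r 0.08, same sign in 58.2%).

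Arrays of the same group correlated at 0.982 to 0.994 and of different groups at 0.979 to 0.991 (Pearson, across genes). Between 63.5% and 79.8% of spots were well above background, with the highest share on S154A_DMSO 1, and 0 to 3 spots were saturated. All 3 S154A_DMSO arrays were at position 1 of their slide and no S154D_DMSO array was, so position and mutant cannot be told apart. Well above background on all 6 arrays were 10 of 22 kidney epithelial markers (4 on none), 14 of 15 epithelial, 10 of 14 mesenchymal (1 on none), 10 of 21 hepatocyte (4 on none), 11 of 16 leukocyte (1 on none) and 4 of 12 enterocyte markers (2 on none). Among the defining ones CDH1, KRT8, KRT18, KRT19, PAX8, AQP1, VIM and FN1 were so on all 6. LRP2 of the proximal tubule was so on 1. Kidney PAX2 was so on 1 of 3 S154A_DMSO and 2 of 3 S154D_DMSO arrays, and CUBN on 2 of 3 in either group. Leukocyte PTPRC and enterocyte FABP2 and SI were so on none. On these human probes ALB and SERPINA1 of hepatocytes, CD3E of T cells, leukocyte CD14 and enterocyte CDX2 were so on all 6. Hepatocyte TTR and APOA1, leukocyte MS4A1, enterocyte VIL1 and mesenchymal COL3A1 were so on 1 of 3 S154A_DMSO and 0 of 3 S154D_DMSO arrays. Summed linear levels, as multiples of the 75th percentile, overlapped between the groups for 22 kidney epithelial markers (47.0 to 54.1 in S154A_DMSO, 43.8 to 54.0 in S154D_DMSO) and for 21 hepatocyte markers (3.94 to 5.22 against 3.67 to 5.13). They overlapped as well for 16 leukocyte markers (6.26 to 9.01 against 6.96 to 10.2) and 12 enterocyte markers (0.520 to 0.779 against 0.575 to 0.814). In bulk RNA, fewer cells of a type and less RNA per cell cannot be told apart.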

How the data were processed

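Total RNA of 12 samples was labelled with Cy3 and hybridised to 1-colour Agilent whole human genome arrays. The deposited scanner files hold intensity values that Agilent Feature Extraction (version 9.5.3.1 per the file headers, 12 per the submitters' processing notes) had background-subtracted and detrended, with no scaling between arrays. The deposited series table holds the same values. From these, log2 of the processed signal minus the array's 75th percentile was computed over 43376 non-control spots. Outlier spots were left out, and a probe was kept if 1 or more groups had it well above background on each of their 3 arrays (26901 of 41000). The brightest kept probe stood for each of 20357 gene names, 13541 of them symbols. Limma 3.58.1 in R 4.3.3 was fitted with 1 mean per group on all 12 arrays, with Benjamini-Hochberg adjustment over all genes, two-sided. A gene was called at an adjusted p under 0.05. Standard errors and 95% intervals are those of the fit, and the number of arrays limits the precision. The fit was tested on simulated data with independent normal noise and planted changes larger than most differences measured here. The simulation held no slide effect, GC trend, dark corner or shift of dim probes, so it does not cover these. Slides were read from the names of the scanner files.

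Named genes were NR1H4, the RXR genes and all FXR targets kept, then 12 genes each way by smallest p and 5 by size among symbols without overlap, and up to 4 members per list by size. A few of these are not reported here. Members and lists were chosen with earlier results of these data known. Alternatives covered scaling, background, the filter, the probe per gene, blocks, GC and left-out arrays.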

Additional observations from a re-analysis of the deposited data

Results flagged for a closer look

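The difference between S154D and S154A depended on CDCA for 9 of the named genes, by the interaction term of the limma fit (difference in CDCA minus difference in DMSO, log2). It was -6.92 ± 0.80 for FABP6 (limma adjusted p = 0.0213), -2.36 ± 0.25 for OSTalpha (0.0213), -1.80 ± 0.24 for FETUB (0.0371), -1.57 ± 0.22 for ASS (0.0371), -1.23 ± 0.17 for SDC1 (0.0381) and -3.15 ± 0.48 for HRG (0.0462), all FXR targets. HRG was kept only through S154A with CDCA, where it is high, and was at background in S154D with CDCA, so its value is a description and no support. FABP6 was kept only through both S154A groups, and its value is a description too. The interaction was positive for 3 genes named for a small p in DMSO, HMG4L (1.21 ± 0.17, limma adjusted p = 0.0403), FBXO5 (1.57 ± 0.23, 0.0421) and NCBP1 (0.91 ± 0.14, 0.0462). Those 3 were chosen for being lower in S154D in DMSO, on arrays that the interaction also uses, so their sign is partly fixed by the choice.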

How the results depend on the processing

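Limma called 0 genes between the mutants in DMSO under each alternative but 1. In the deposited series values without centring it called 1, ZNF491 (-3.58 ± 0.51, adjusted p = 0.0264), where the median of all genes was -0.24. The smallest adjusted p was otherwise between 0.127 and 1. At an unadjusted p under 0.05, 239 genes were higher and 641 lower, against 113 and 560 when centred on the median, 8 and 471 in the series values, 424 and 497 with normexp, 159 and 799 without the filter, and 404 and 173 with the GC trend removed. In the last of these the median of all genes was 0.087. The median of the FXR targets was -0.258 in the series values and otherwise moved by less than its spread between replicates (SD 0.093), from -0.088 to 0.048. The 6 targets whose difference depended on CDCA became 3 when centred on the median, 1 in the series values, 0 without the filter and 0 with slide as a block, and 0 to 2 with a DMSO array left out. LUM reversed within slide 3 (0.19 against -0.69).

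Same-numbered S154A and S154D arrays deviated together with correlations of -0.04, 0.36 and 0.22, and arrays of unlike number with -0.34 to 0.14. For replicates 2 and 3 the same number gave the highest value. The arrays of replicate 1 shared a slide, as did those of replicate 3, so number and slide cannot be told apart there. The main fit did not pair the arrays. With the replicate number as a block 0 genes were called (863 at an unadjusted p under 0.05), the FXR median was -0.015 and 2 targets depended on CDCA. Probes under a level of -5 had a median standard error of 0.39, against 0.14 at 0 and over, which limits FABP6, FGF19 and OSTbeta.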

Other observations

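Nuclear receptors other than FXR and RXR centred on 0 in DMSO, with 17 of 33 above it and a median of 0.01. RARA, a retinoic acid receptor, stood at 0.75, 0.67 and 1.10 in S154A_DMSO against 1.68, 1.14 and 1.67 in S154D_DMSO (0.65 ± 0.29, limma adjusted p = 0.997). Its S154D arrays were all higher on this probe, and a further RARA probe gave 0.09 ± 0.27. In the extracellular matrix list TGFB2, a growth factor, stood at -1.87, -2.16 and -1.91 against -2.92, -2.52 and -2.74 (-0.75 ± 0.24) and COL6A1, a collagen chain, differed by 0.42 ± 0.17 (-0.15 ± 0.22 on a further probe), neither passing. The TGFB2 probe held 35% GC.

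Cell cycle genes had a median of -0.01 over 48 tested. CCNB1, cyclin B1, stood at 1.85, 1.86 and 1.81 in S154A_DMSO against 1.40, 1.56 and 1.49 in S154D_DMSO (-0.36 ± 0.11), while UBE2C, a ubiquitin-conjugating enzyme of mitosis, differed by 0.30 ± 0.11, and neither passed. Mitochondrial respiratory chain genes had a median of 0.01 over 61, from COX7C (-0.66 ± 0.28) to SDHC (0.37 ± 0.16). Of the genes often used as references, ACTB differed by 0.34 ± 0.11 and TBP by -0.46 ± 0.12, each without overlap between the groups.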
